A study of Homo sapiens with 8 samples.

Results

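CXCL9, CXCL10, CXCL11 and CXCL13 are 4 chemokine genes of human chromosome 4, and their RNA was followed in THP-1 cells, an acute monocytic leukemia line, with and without decitabine (DAC), a hypomethylating agent that blocks DNA methyltransferases. The 4 were taken by symbol from the 60664 genes of the deposited table, and all 4 were present. The set was drawn up because CXCL13 and CXCL11 were among the strongest rises of these same libraries, so their levels in the comparisons that show those rises are a description and carry no test. There were 8 libraries in 4 groups of 2 replicates, labelled as biological replicates: parental THP-1 cells given DMSO as control, parental cells given 1 µM DAC, DAC-resistant THP-1 cells given DMSO, and DAC-resistant cells given 1 µM DAC. Every group was labelled wild type and was collected after 6 days. The resistant cells are a population selected from this single line by repeated DAC pulses and kept free of drug before the experiment, so any difference between the lines holds for this one selection. The question was how DAC changed these genes in either line, and how the resistant cells differed from the parental cells at rest.

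Chemokines are small secreted proteins that direct the movement of leukocytes. CXCL9, CXCL10 and CXCL11 all bind the receptor CXCR3 on activated T cells and natural killer cells, and interferons induce them in monocytes, with help from NF-κB and interferon regulatory factors. CXCL13 binds CXCR5 on B cells and follicular helper T cells and is best known from follicular dendritic cells, although monocytes and macrophages can also make it. On GRCh38, the build of the files, CXCL9 lies at chr4:76001275-76007509, CXCL10 at chr4:76021118-76023497 and CXCL11 at chr4:76033682-76041415, all on the minus strand. The gaps between these 3 are 13.6 kb and 10.2 kb. CXCL13 lies 1470 kb further along, at chr4:77511753-77611834 on the plus strand. CXCL10 and CXCL11 sit within introns of ART3, which is on the plus strand, with 0 bases of exon shared.

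The 250 bases before the start site of each gene are printed here because these chemokines are classical targets of interferon and NF-κB signalling and because the drug acts on CpG methylation. All 4 genes matched the RefSeq promoter set (GRCh38.p14), in which CXCL13 has 2 start sites. The CXCL11 start site of that set (76036070) lies inside the gene span given above, which comes from GENCODE 44, so the CXCL11 window also lies inside that span. Each sequence runs 5′ to 3′ along the gene and ends 1 base before the start, and capitals mark every match to any of 4 motifs on either strand. The first motif, like an interferon-stimulated response element (ISRE), was the word GAAA repeated after a gap of 2 bases of any kind. The interferon-gamma activated site (GAS) was searched as TTCNNNGAA, where N is any base. The NF-κB-like motif was the word GGGA followed, after a gap of 4 bases of any kind, by a pair of C. The last was TATAAA, the TATA box. Printed examples are GAAAGTGAAA (ISRE-like, CXCL10) and GGGAAATTCC (NF-κB-like, CXCL10 and CXCL11).
CXCL9, chr4:76007510-76007759, minus strand: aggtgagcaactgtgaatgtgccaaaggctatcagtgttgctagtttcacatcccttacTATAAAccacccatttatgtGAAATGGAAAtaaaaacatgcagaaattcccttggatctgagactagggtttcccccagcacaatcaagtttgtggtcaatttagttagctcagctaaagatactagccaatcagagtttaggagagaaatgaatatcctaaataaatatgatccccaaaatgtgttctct
CXCL10, chr4:76023498-76023747, minus strand: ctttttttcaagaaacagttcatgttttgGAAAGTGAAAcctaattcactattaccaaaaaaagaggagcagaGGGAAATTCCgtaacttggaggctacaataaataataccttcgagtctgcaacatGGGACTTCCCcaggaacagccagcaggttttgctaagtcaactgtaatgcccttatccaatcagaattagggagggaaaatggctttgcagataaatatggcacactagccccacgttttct
CXCL11, chr4:76036071-76036320, minus strand: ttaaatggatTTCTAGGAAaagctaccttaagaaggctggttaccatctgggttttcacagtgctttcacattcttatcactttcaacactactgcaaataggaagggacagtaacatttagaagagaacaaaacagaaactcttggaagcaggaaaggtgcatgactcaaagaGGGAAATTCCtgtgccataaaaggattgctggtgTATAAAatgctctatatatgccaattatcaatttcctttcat
CXCL13, second start site, chr4:77605570-77605819, plus strand: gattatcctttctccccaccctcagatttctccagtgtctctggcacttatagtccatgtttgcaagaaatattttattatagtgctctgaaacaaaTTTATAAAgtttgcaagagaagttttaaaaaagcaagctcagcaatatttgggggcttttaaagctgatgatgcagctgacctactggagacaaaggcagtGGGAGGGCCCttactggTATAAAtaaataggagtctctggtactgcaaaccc

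The ISRE-like letters occurred in 3.02% of the 35116 promoter windows of this length, and in the windows of CXCL9 and CXCL10. In CXCL10 the match lay 221 to 212 bases before the start, and in CXCL9 171 to 162 bases before it. The NF-κB-like letters, present in 22.6% of all windows, occurred at 2 places in CXCL10 (177 to 168 and 122 to 113 bases before the start), at 1 place in CXCL11 (76 to 67) and at 1 place in the CXCL13 window printed (52 to 43). CXCL11 also held a GAS match 240 to 232 bases before the start, which 6.57% of windows have. A TATA match, found in 10.7% of windows, lay 42 to 37 bases before the start of CXCL11, 35 to 30 bases before the second start of CXCL13 and, further from the start, 191 to 186 bases before that of CXCL9. In that CXCL13 window another TATA match and its reverse-strand partner overlap further upstream. The window before the first CXCL13 start site (77511753) held a TATA match only. CpG, the pair of bases that is methylated, was counted in each window: CXCL9, CXCL11 and the second CXCL13 start have 0, the first CXCL13 start has 2 and CXCL10 has 3, against a median of 11 over all windows. A count of 0 occurred in 6.06% of windows, 2 or fewer in 22.9% and 3 or fewer in 29.3%, so the counts of CXCL10 and of the first CXCL13 start are common ones. A match here is a match of letters and not a measured binding site, and methylation was not measured in these libraries.

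The libraries were alike in depth, with 27480502 to 31916835 reads by the totals the values were scaled to. Values are FPKM, reads scaled to gene length and to library size, so levels can be compared between genes. One read of CXCL9 was worth 0.0113 to 0.0132 FPKM. The THP-1 label was checked against monocyte markers, and all 10 listed were detected in every group. T cell, B cell and stromal markers were followed beside them and are given with the results they move with. In bulk RNA, fewer cells making a transcript and less transcript per cell cannot be told apart. The labels call the replicates biological but do not say how the cultures were separated, so p-values measure the spread between these libraries.

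CXCL10, a chemoattractant for CXCR3-bearing T cells, was low in untreated parental cells and at a similar raised level in the other 3 groups. Its FPKM was 1.10 and 0.814 in the parental DMSO libraries and 35.6 and 35.2 in the parental DAC libraries. DAC-resistant cells held 36.1 and 30.8 FPKM in DMSO and 25.8 and 26.6 FPKM in DAC. The 2 parental DMSO libraries thus stood alone at the bottom, and the 2 parental DAC values lay between the 2 values of untreated resistant cells. On mean FPKM, DAC-treated parental cells held 37.0 times the parental DMSO level and untreated resistant cells 35.0 times. These multiples rest on 41 and 29 reads in the parental DMSO libraries, and counting error alone gives 29.1 to 47.5 for the first (exact 95% interval of the read ratio, which covers counting error only).

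CXCL11, which binds CXCR3 with the highest affinity of its ligands, separated the lines far more. Parental DMSO libraries held 0.159 and 0.0556 FPKM, from 9 and 3 reads. Parental DAC libraries held 10.1 and 9.44 FPKM. Untreated DAC-resistant libraries held 91.4 and 96.0 FPKM, and DAC-treated resistant libraries 75.1 and 80.1 FPKM. The 4 groups did not overlap in CXCL11, and their order from low to high was parental DMSO, parental DAC, resistant DAC and resistant DMSO. DAC-treated parental cells had 90.8 times the parental DMSO level (counting interval 51.2 to 174), and untreated resistant cells had 872 times (493 to 1669). Parental DMSO replicate 1 held most of those few reads, and without it the multiples were 176 and 1686, against 61.2 and 588 without replicate 2. Resistant cells with no drug held 9.60 times the CXCL11 of DAC-treated parental cells, while their CXCL10 stood at 0.944 of it with overlapping libraries. Among the 14899 genes tested, CXCL11 ranked 327 and 295 by FPKM in the untreated resistant libraries.

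CXCL13, the B cell chemoattractant, was abundant in a single group. It stood at 0.110 and 0.0919 FPKM in parental DMSO libraries and at 75.6 and 74.2 FPKM in parental DAC libraries. DAC-resistant libraries held 0 and 0.116 FPKM in DMSO and 0.240 and 0.0910 FPKM in DAC. In reads these were 5 and 4, 2982 and 2928, 0 and 5, and 11 and 4. The 6 libraries other than parental DAC overlap and none held more than 11 reads of CXCL13. DAC-treated parental cells had 742 times the parental DMSO level, with a counting interval of 390 to 1621. Over both libraries DAC-treated resistant cells gave 15 reads of CXCL13 and DAC-treated parental cells 5910. Among the 14899 genes tested CXCL13 ranked 361 and 367 by FPKM in the DAC-treated parental libraries.

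CXCL9, the third CXCR3 ligand, was near the limit of detection throughout. Its reads were 0 and 1 in parental DMSO, 5 and 14 in parental DAC, 6 and 4 in resistant DMSO and 3 and 0 in resistant DAC. The highest value was 0.185 FPKM, in 1 of the DAC-treated parental libraries. A count of 0 allows up to 0.0343 FPKM in the parental DMSO library and up to 0.0355 FPKM in the resistant DAC library (3 reads). CXCL9 did not reach the filter of 1 FPKM in 2 libraries, and CXCL13 passed it through the parental DAC libraries alone, and neither was tested.

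Together the 4 chemokines gave 1.37 and 0.973 FPKM in parental DMSO libraries and 121 and 119 FPKM in parental DAC libraries. Resistant libraries summed to 128 and 127 FPKM in DMSO and to 101 and 107 FPKM in DAC. Similar sums were made up of different genes. CXCL13 was 62.3% of the sum in both parental DAC libraries, CXCL10 29.3% and 29.6%, and CXCL11 8.30% and 7.92%. In resistant cells CXCL11 was 71.7% to 75.6% of the sum and CXCL13 at most 0.237%. The ratio of CXCL11 to CXCL10 was 0.283 and 0.268 in DAC-treated parental cells. It was 2.53 and 3.11 in untreated and 2.91 and 3.01 in DAC-treated resistant cells, so every resistant library lay above 1 and every parental library below.

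The effect of DAC on resistant cells is the comparison that did not show the rises, and there CXCL10 was tested with limma on log2(FPKM + 1) in a fit over all 14899 genes. CXCL11 is given without a test, because it was chosen as a top rise and the DMSO libraries of this comparison are those where it was highest. A gene was called where p was at most 0.01 and the log2 fold change at least 1 in size, the thresholds of the study. CXCL10 was not called by limma or by limma voom on recovered reads, in a comparison where 0.235% of all genes were called by limma. Its log2 difference was -0.34 (SE 0.090, 95% interval -0.55 to -0.12, unadjusted p = 0.00846, limma adjusted p = 0.0632), below the size needed. The fitted log2 difference of CXCL11 was -0.27. Both DAC libraries lay below both DMSO libraries for CXCL10 and for CXCL11, as they did for 26.4% of all genes. The share of all genes that were lower at an adjusted p under 0.05 was 5.35%. For CXCL13, which was not tested here because only its high parental DAC libraries let it pass the filter, the fitted difference was 0.14 (interval -0.08 to 0.36), from 5 reads in the DMSO and 15 reads in the DAC libraries. That value moved with the scale, to 0.79 with a pseudocount of 0.1 and 2.13 with limma voom on recovered reads. CXCL9, fitted without the filter and not tested, was at -0.06 (interval -0.19 to 0.07). The CXCL10 adjusted p ran from 0.0041 to 0.236 over the 19 alternative settings, and it was called in none of them.

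In the other comparisons the log2 differences of CXCL10, CXCL11 and CXCL13 are given side by side, without a test. DAC against DMSO in parental cells gave 4.22, 3.28 and 6.11. The untreated resistant cells differed from untreated parental cells by 4.14, 6.42 and -0.06. Resistant against parental cells in DAC gave -0.42, 2.87 and -6.03. These comparisons share libraries, so they are not separate observations, and nothing is read from their size because they led to the choice of these genes. As background for the gene lists that follow, DAC in parental cells raised 6.66% of all genes tested. In resistant against parental cells in DMSO 4.45% were raised and 4.28% lowered. With upper-quartile scaling, a pseudocount of 0.1 or voom on recovered reads, more were lowered than raised there. In resistant against parental cells in DAC 5.29% were raised and 9.17% lowered, but with a mean of at least 5 FPKM slightly more were raised than lowered. Adding 1 to each FPKM shrinks the differences of genes near 0, which is why CXCL11 in parental cells has a smaller log2 difference than CXCL10 despite its larger multiple on FPKM.

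Of the 6 listed receptors, scavengers and modifiers 1 passed the filter. CXCR3 was under it, at 0.0508 and 0.248 FPKM in parental DMSO and 1.15 and 0.801 in parental DAC libraries, and at 0.527 and 0.179 FPKM in untreated and 0.740 and 0.614 FPKM in DAC-treated resistant libraries. Its DAC-treated libraries lay above the DMSO libraries in both lines. The share of all genes with that order was not counted, and CXCR3 was not tested, so no DAC effect is read from the order. CXCR5, the CXCL13 receptor, had 2 and 5 reads in the parental DAC libraries and 0 reads elsewhere. ACKR3, a scavenging receptor that binds CXCL11 and CXCL12, was also under the filter, with 39 and 37 reads in parental DMSO, 35 and 47 in parental DAC, 0 and 1 in resistant DMSO and 0 in both resistant DAC libraries. Its reads were thus nearly confined to the parental line, at 0.589 to 0.826 FPKM, and it was not tested. DPP4, a protease that trims and inactivates CXCL10 and CXCL11, was the gene that passed. It stood at 1.01 and 0.973 FPKM in parental DMSO, 0.131 and 0.164 in parental DAC, 1.75 and 1.54 in resistant DMSO and 1.80 and 1.86 in resistant DAC libraries. Under DAC the fitted log2 difference between resistant and parental cells was 1.30, and since DPP4 passed the filter only through the resistant libraries, where it is high, no test is read from it. With DAC in parental cells its difference was -0.79, short of the fold threshold on this scale, and limma voom on recovered reads did call it there.

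Of the cytokines that induce these chemokines, TNF was raised in untreated resistant cells, and IFNB1 had more reads there than in parental cells. IFNB1, the gene for interferon-β, had 0 and 1 reads in parental DMSO, 7 and 12 in parental DAC, 46 and 51 in resistant DMSO and 51 and 60 in resistant DAC libraries. Its level was thus 1.74 and 2.02 FPKM in untreated resistant cells against 0.303 and 0.520 FPKM in DAC-treated parental cells, and these groups did not overlap. The fitted log2 difference of IFNB1 between resistant and parental cells in DMSO was 1.50, given without a test because only the resistant libraries let this gene pass the filter. Over both replicates the read ratio was 97.6, with a counting interval of 17.1 to 3896 since the parental DMSO total was 1 read. With DAC in parental cells IFNB1 differed by 0.47, which did not reach the fold threshold, whereas limma voom on recovered reads called it. IFNG, IFNA1 and IFNL3 had 0 reads in all 8 libraries.

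TNF, an activator of NF-κB, was at 8.18 and 7.94 FPKM in parental DMSO libraries, 36.1 and 38.2 in parental DAC, 35.3 and 35.0 in resistant DMSO and 51.1 and 49.9 in resistant DAC libraries. Like CXCL10 it was low in untreated parental cells alone. It was raised by DAC in parental cells (log2 difference 2.07, limma adjusted p = 1.36e-07) and in resistant cells against parental cells in DMSO (2.00, limma adjusted p = 2.34e-07). The lymphotoxin gene LTB, also of the TNF family, was raised by DAC in parental cells by 2.25 on the log2 scale. Its relative LTA passed the filter only through the parental DAC libraries and has a fitted difference of 1.88 there, without a test. With DAC in resistant cells limma called none of IFNB1, TNF and LTB, the 3 of 11 listed cytokines that pass the filter without the parental DAC libraries (2 had an unadjusted p under 0.05, and voom called 0). How many of all genes had such a p was not counted, so these 2 are not read as particular to the cytokines.

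The 10 transcription factors described here as regulators of these promoters all passed the filter. With DAC in parental cells 2 of the 9 that pass the filter without the parental DAC libraries were raised, IRF7 by 3.52 and STAT2 by 1.36 on the log2 scale. STAT2 and IRF9 bind the ISRE together after interferon signalling, and IRF7 amplifies interferon transcription. IRF9 passed only through the parental DAC libraries, and its fitted difference was 1.31, without a test. STAT2 rose from 19.9 FPKM in both DMSO libraries to 50.9 and 54.4 FPKM, and IRF7 from 3.74 and 3.43 FPKM to 50.4 and 52.6 FPKM. IRF8 went the other way without being called, from 44.5 and 46.2 FPKM in parental DMSO to 28.8 and 26.9 FPKM in parental DAC libraries. In untreated resistant cells STAT2 stood at 27.0 FPKM in both libraries, a log2 difference of 0.42 from parental cells that did not reach the fold threshold. IRF7 was the 1 factor raised in resistant against parental cells in DMSO, from 3.74 and 3.43 FPKM to 8.33 and 8.51 FPKM (log2 difference 1.04). That call is at the edge, since quantile normalization, upper-quartile scaling and leaving out parental DMSO replicate 2 each removed it. The NF-κB subunit genes RELB and NFKB1 were lower in resistant cells in DMSO, with log2 differences of -1.45 and -1.33. In resistant cells given DAC limma called none of the 9 factors other than IRF9 (5 had an unadjusted p under 0.05, and voom called 0). The share of all genes at that p was not counted, so nothing particular to these factors is read from the 5. IRF7 went from 8.33 and 8.51 to 5.36 and 4.76 FPKM there (-0.64, limma adjusted p = 0.00259), under the fold threshold.

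**Figure D1:**
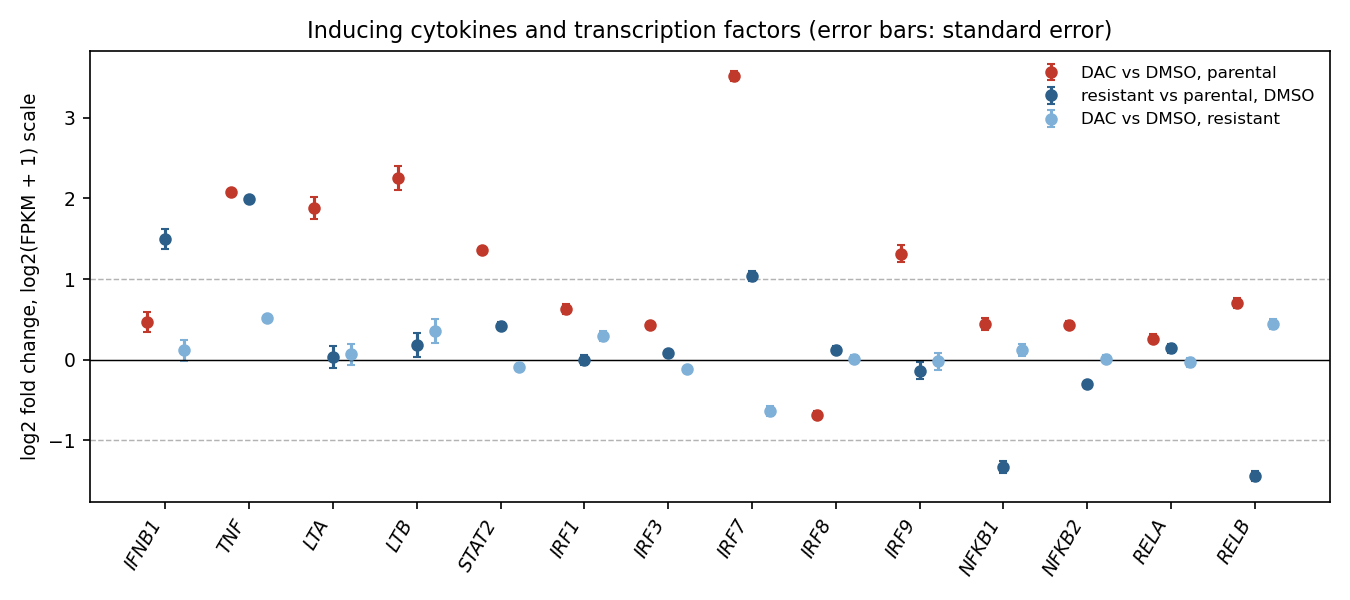
Log2 fold changes on the log2(FPKM + 1) scale (vertical axis, error bars are limma standard errors, dashed lines mark 1 and -1) of the 4 inducing cytokines and 10 transcription factors that pass the filter, for DAC against DMSO in parental cells, resistant against parental cells in DMSO and DAC against DMSO in resistant cells. DAC in parental cells raised IRF7 (3.52) and LTB (2.25) most, resistant cells in DMSO were highest in TNF (2.00) and IFNB1 (1.50), and DAC in resistant cells moved none beyond the dashed lines.

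Other chemokines were raised by DAC in the parental line as well. Of 13 other CXC chemokines listed 8 were under the filter, and CXCL1, CXCL2 and CXCL16 passed it only through the parental DAC libraries. The other 2 were both raised by limma with DAC in parental cells, CXCL8, which attracts neutrophils, by 4.23 and CXCL12, which retains progenitors in bone marrow, by 1.58 on the log2 scale. The neutrophil attractants CXCL1 and CXCL2 had fitted differences of 2.79 and 1.23, without a test. CXCL8 was at 1.13 and 1.38 FPKM in parental DMSO, 41.9 and 40.5 in parental DAC, 4.22 and 4.20 in resistant DMSO and 2.03 and 3.14 in resistant DAC libraries. CXCL8 was also the CXC chemokine that limma on log2(FPKM + 1) called raised in resistant against parental cells in DMSO (log2 difference 1.21). CXCL12 went from 0.208 and 0.157 to 1.26 and 1.32 FPKM in the same comparison, a log2 difference of 0.95 that fell short of the fold threshold on this scale, and limma voom on recovered reads called it. Of 21 CC chemokines listed 5 pass the filter without the parental DAC libraries, and of these DAC in parental cells raised CCL2 by 4.33 and CCL3 by 2.48 on the log2 scale by limma. Among the same 5, CCL28 was lower with DAC in parental cells without being called, at 8.96 and 9.16 against 14.5 and 13.7 FPKM. CCL22 was also lower there, at 0.449 and 0.262 against 1.32 and 1.05 FPKM, given without a test. CCL8, CCL13, CCL1, CCL7, CCL4 and CCL20 passed only through the parental DAC libraries, with fitted differences from 1.07 (CCL20) to 5.57 (CCL8), without a test. The monocyte attractants CCL2 and CCL8 reached 90.7 and 89.6 FPKM and 50.5 and 46.0 FPKM, respectively, in parental DAC libraries. CCL5, an attractant of T cells and monocytes, was raised by limma in resistant cells in DMSO, at 110 and 114 FPKM against 48.3 and 46.7 FPKM in parental cells, and CCL2, which passed the filter only through the parental libraries, was at 0.447 and 0.268 against 3.48 and 3.60 FPKM. In this comparison voom on recovered reads also called CCL4, with 24 and 26 reads against 0 and 1 in parental cells, while its log2 difference in the limma fit was 0.53, under the fold threshold. CCL22, which passed only through the parental DMSO libraries, was at 0.185 and 0.205 against 1.32 and 1.05 FPKM. Its fitted log2 difference was -0.87, given without a test for that reason. With DAC in resistant cells limma called none of the 2 CXC genes (CXCL8 and CXCL12) and 5 CC genes (CCL2, CCL3, CCL5, CCL22 and CCL28) that pass the filter without the parental DAC libraries (1 and 0 had an unadjusted p under 0.05, and voom called 0). Here too the share of all genes at that p was not counted, and nothing is read from these counts.

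The genes with the profile most like each chemokine over the 8 libraries differed between the 3 that pass the filter. Likeness was the root mean square difference of log2(FPKM + 1), each gene centred on its own mean, and it is a description. CXCL10 was nearest to SPARC (0.278), the gene for a secreted matrix protein, and to the interferon-stimulated genes IFIT2 (0.298) and HERC5 (0.359). IFIT2 was at 1.57 and 1.43 FPKM in parental DMSO, 26.6 and 27.7 in parental DAC, 26.9 and 27.1 in resistant DMSO and 21.7 and 22.2 in resistant DAC libraries. CXCL11 was nearest to OTP (0.464), a homeobox gene, then to DCAF4L1 (0.537) and NFE4 (0.606). OTP stood at 0.0181 and 0.0285 FPKM in parental DMSO and 3.52 and 3.62 in parental DAC, and at 40.1 and 38.3 in untreated and 42.4 and 40.0 in DAC-treated resistant libraries. CXCL13 was nearest to MMP9 (0.237), a secreted matrix metalloproteinase, then to CCL8 (0.363) and PNMA5 (0.422). MMP9 was at 116 FPKM in both parental DAC libraries and between 0.988 and 1.65 FPKM in the other 6. By the same measure CXCL10 and CXCL11 were 1.43 apart, CXCL10 and CXCL13 2.55, and CXCL11 and CXCL13 3.98, so none of the 3 was among the nearest of another.

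Of 17 listed neighbours of the chemokines on chromosome 4, 10 passed the filter. With DAC in parental cells 8 of the 10 had an unadjusted p under 0.05. The share of all genes at that p was not counted, so nothing particular to the neighbours is read from this count. The 1 called, by limma and by voom, was ART3, which passed the filter only through the parental DAC libraries. ART3, an ADP-ribosyltransferase family gene whose introns hold CXCL10 and CXCL11 on the other strand, had 0 and 0.0302 FPKM in parental DMSO and 2.11 and 1.71 FPKM in parental DAC libraries (fitted log2 difference 1.52, given without a test for that reason). In resistant libraries it was at 0.116 and 0.0812 FPKM in DMSO and 0.229 and 0.159 FPKM in DAC. ART3 was therefore high in the parental DAC libraries only, where CXCL11 was at 10.1 and 9.44 FPKM, and low in the resistant libraries where CXCL11 was highest. The counting is not stated to use strand, and without strand reads of unspliced ART3 and of the chemokines inside its introns cannot be told apart. Between untreated resistant and parental cells limma called none of the 10, and voom called ART3 and CCNG2. An unadjusted p under 0.05 was found for 6 of the 10, again without a share over all genes, so it is not read as particular to them. The median over the 10 was -0.25, beside 0.02 over all genes. Its sign changed between comparisons. With DAC it was -0.21 in parental cells and 0.13 in resistant cells, beside 0.06 and 0.01 over all genes. In resistant against parental cells in DAC it was 0.18, beside -0.03 over all genes. With DAC in resistant cells limma also called none of the 9 other than ART3 (3 had an unadjusted p under 0.05, and voom called 0). In resistant against parental cells under DAC, SCARB2, a lysosomal membrane protein gene, was called lower (log2 difference -1.27), at 4.42 and 4.69 against 12.3 and 12.6 FPKM, and the fitted difference of ART3 was -1.28, again without a test. SEPTIN11 and CCNI, a cyclin gene, were lower with DAC in parental cells without reaching the fold threshold, SEPTIN11 from 24.7 and 25.6 to 13.3 FPKM in both libraries (-0.87) and CCNI from 97.5 and 101 to 58.0 and 57.5 FPKM (-0.77).

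**Figure D2:**
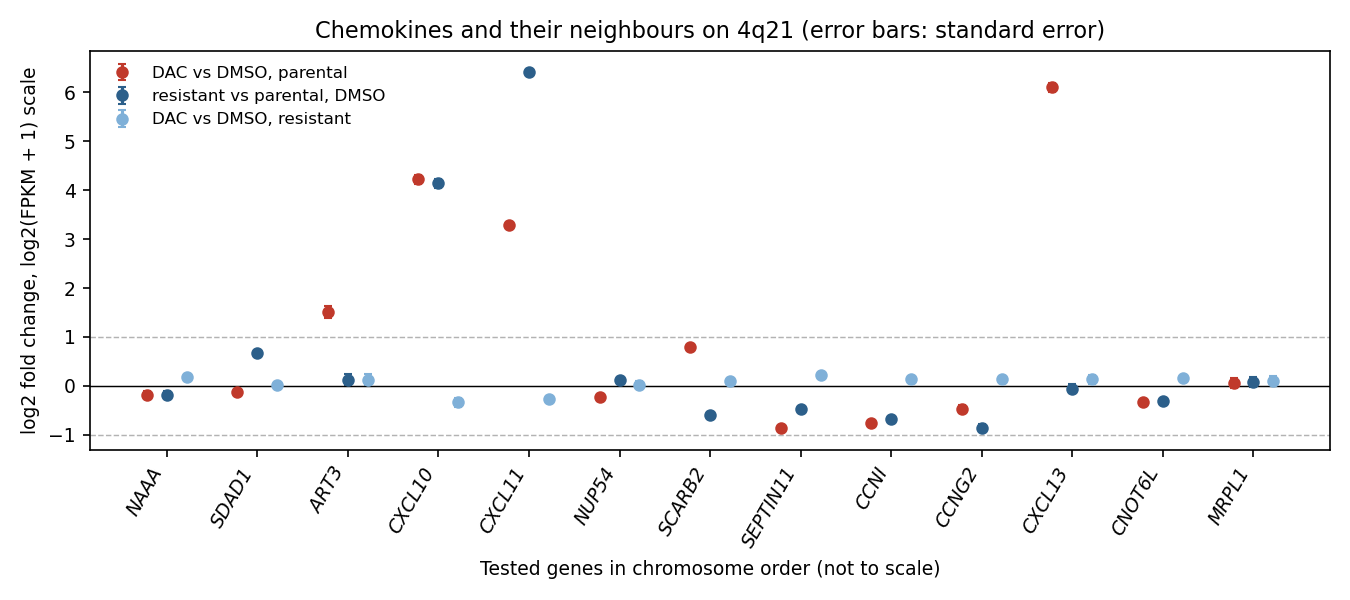
Log2 fold changes on the log2(FPKM + 1) scale (vertical axis, limma standard errors, dashed lines at 1 and -1) of the 3 chemokines and 10 neighbours that pass the filter, placed in chromosome order and not to scale, for DAC against DMSO in parental cells, resistant against parental cells in DMSO and DAC against DMSO in resistant cells. In these 3 comparisons CXCL10, CXCL11, CXCL13 and ART3 pass 1 at least once and the other neighbours lie between the dashed lines.

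Markers of differentiation and of other cell types moved with some of these groups. Summed over the 10 monocyte markers, FPKM was 186 to 187 in parental DMSO, 300 to 306 in parental DAC, 114 to 119 in resistant DMSO and 119 to 123 in resistant DAC libraries. The sum was thus highest where CXCL13 was high and lower in resistant cells. SPI1 alone stood at 102 FPKM in both parental DMSO libraries, so the sum depends largely on this gene. DAC in parental cells raised 4 of the 10 (CD14, LYZ, CD36 and MPO), and CD14, the monocyte co-receptor for lipopolysaccharide, was at 19.0 and 20.8 FPKM there against 1.45 and 1.58 in DMSO. The 10 did not all move together. CD33 was lower with DAC in parental cells without being called, at 8.10 and 7.61 against 9.92 and 9.74 FPKM. CD68 was at 0.718 and 1.35 FPKM in resistant DMSO against 0.642 and 0.366 FPKM in parental DMSO libraries. The 6 T cell markers summed to 0.0105 to 0.0406, 1.40 to 1.59, 0.161 to 0.304 and 0.0535 to 0.142 FPKM in the same order of groups, with CD3D at 0 outside parental DAC libraries and CD8A at 0 within them but at 0.0535 to 0.229 FPKM in resistant libraries. The 6 B cell markers summed to 5.43 to 5.97, 6.45 to 7.75, 2.40 to 2.96 and 1.57 to 2.20 FPKM. The 6 markers of follicular dendritic and stromal cells summed to 0.755 to 0.839, 12.8 to 13.2, 7.14 to 7.22 and 5.43 to 5.72 FPKM, from PDGFRB and COL1A1 mostly, while FDCSP, a defining gene of follicular dendritic cells, was at 0 in all 8 libraries. The part of these differences in the chemokine levels was not tested.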

How the data were processed

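Poly(A) RNA libraries (KAPA mRNA HyperPrep) of 8 THP-1 cultures were sequenced by the authors. Per the labels and the study's methods, reads were trimmed with Cutadapt 1.9.1, aligned to hg38 with HISAT2 2.1.0, handled with SAMtools 1.6 and counted with HTSeq 0.13.5; the strand setting is not given in the sources used here. The authors deposited 1 table of FPKM values for 60664 genes and 1264 repeat families, multiplied by 1000; values were divided by 1000 here. Values of up to 50 reads fell on whole reads (within 0.02) for 89.6% to 90.3%, so reads were recovered from these steps. Gene reads recovered were 28717841 to 33416782 a library, 104% to 105% of the total used for scaling. 0 columns belonged to other samples.

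Groups came from the sample titles. log2(FPKM + 1) of genes at 1 FPKM or more in at least 2 libraries (14899 genes) was fitted with limma 3.58.1 (R 4.3.3), 4 group means, trended moderation and Benjamini-Hochberg adjustment over all genes tested, with 4 residual degrees of freedom. Calls used the study's volcano-plot limits, a change of 1 or more in log2 and an unadjusted p of 0.01 from limma. The script was tested on simulated data. An exact permutation test of 2 against 2 libraries cannot give a p under 0.333 and was not used. Tables used Python 3.11.15, and positions GENCODE 44 (GRCh38). The chemokines and gene lists were chosen with earlier results of these data known. Named were the 4 chemokines, CXCR3 and CXCR5, up to 6 genes a list that were called or did not overlap between groups, by size, and the 3 nearest genes of each chemokine past the filter; markers, IFNG, IFNA1, IFNL3, CCL4 and CCL20 were added after their values were seen. Alternatives covered the pseudocount, filter, scaling, replicate block, samples in the fit, variance trend, call rule, recovered reads (limma voom) and each library left out. Protein sequences were not used here, and 1 listed transcription factor is not reported here.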

Additional observations from a re-analysis of the deposited data

Results flagged for a closer look

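The interaction term of the limma fit (resistant minus parental DAC effect, log2 scale) passed the thresholds for the 18 listed genes given first here. They are up to 6 a list by size, cell type markers aside. Of these CXCL1, CXCL2, CCL8, CCL13, CCL1, CCL7, LTA, IRF9 and ART3 passed the filter only through the parental DAC libraries, which favours a difference of this sign, so their values are a description and not a test. Among CXC chemokines the difference was -4.79 for CXCL8, -2.65 for CXCL1, -1.46 for CXCL12 and -1.14 for CXCL2. The CXCL2 call was lost on leaving out 6 of the 8 libraries in turn and with 4 other settings, and the CXCL1 call with limma voom on recovered reads. Among CC chemokines it was -5.84 for CCL8, -4.41 for CCL2, -3.46 for CCL13, -2.65 for CCL3, -2.49 for CCL1 and -2.11 for CCL7. Beyond these 6, CCL4 also passed the thresholds, at -1.64. It too reached the filter only through the parental DAC libraries, so its value is a description. CCL13, CCL1 and CCL7 were at 0 reads in all libraries other than parental DAC, so their fitted differences depend on the pseudocount. Of the inducing cytokines, LTB differed by -1.89, LTA by -1.82 and TNF by -1.56. The transcription factors IRF7, STAT2 and IRF9 differed by -4.15, -1.46 and -1.33. On chromosome 4, ART3 differed by -1.40 and SEPTIN11, a cytoskeletal septin gene, by 1.08. SEPTIN11 was at 24.7 and 25.6 FPKM in parental DMSO, 13.3 and 13.3 in parental DAC, 17.7 and 17.9 in resistant DMSO and 20.8 and 20.7 in resistant DAC libraries. In this comparison 1067 of the 14899 genes were called lower and 516 higher.

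CXCL10 and CXCL11 were higher in both DAC libraries than in both DMSO libraries of parental cells and lower in both DAC libraries of resistant cells, an order that 14.0% of the 14899 genes tested shared. The fitted differences between the effects were -4.56 and -3.55. The order was the same for CXCL9, with a fitted difference of -0.22, on at most 14 reads a library and with 3 and 0 against 6 and 4 reads in resistant cells. The difference was not tested for these 3 genes, because the parental libraries were used to choose them.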

How the results depend on the processing

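The DAC effect in resistant cells kept its direction under all 19 alternatives for CXCL10 (-0.45 to -0.23, uncalled in each) and CXCL11 (-0.32 to -0.22, not tested). CXCL13, also not tested there, ran from 0.05 to 2.13, the highest with limma voom on recovered reads. Leaving out libraries gave -0.45 to -0.23, -0.32 to -0.22 and 0.05 to 0.23 for CXCL10, CXCL11 and CXCL13. CXCL9 had a single value, as it fails the filter and was not run elsewhere. Of 95 calls of other listed genes, those that passed the filter through 1 group included, 95 kept their direction under every alternative that tested them, 84 stayed called in all of them and 89 with each library left out. Genes called numbered 1387 (DAC in parental cells), 35 (DAC in resistant cells), 1300 (resistant against parental, DMSO), 2154 (the same in DAC) and 1583 (difference between the DAC effects). In that order a pseudocount of 0.1 gave 2097, 107, 2263 and 3249 for the first 4, a mean of at least 5 FPKM gave 573, 6, 517, 908 and 721, TPM rescaling gave 2777, 179, 2586, 4193 and 2797, and voom gave 2208, 60, 2370 and 3345 for the first 4. The cause was not tested. Leaving out 1 library gave 1375 to 1396, 37 to 53, 1276 to 1305, 2124 to 2169 and 1556 to 1599; the 53 came without DAC-resistant DAC replicate 1. Quantile normalization moved higher against lower calls from 993 and 394 to 843 and 580 in parental DAC, from 788 and 1366 to 1019 and 1161 in resistant against parental cells under DAC, and from 516 and 1067 to 686 and 916 in the difference. Upper-quartile scaling turned 663 higher and 637 lower calls into 579 and 746 in resistant against parental cells in DMSO. A pseudocount of 0.1 gave 1079 and 1184 there, and voom 1103 and 1267. With a mean of at least 5 FPKM, resistant against parental cells under DAC had 462 higher and 446 lower calls. Replicate numbers only named samples (correlations of -0.022 to 0.020 between same-numbered libraries), and the replicate block gave 1388, 35, 1293, 2152 and 1586 calls and no change in the CXCL10 call. By Pearson correlation in place of the root mean square difference, 1, 0 and 0 of the 3 nearest genes of CXCL10, CXCL11 and CXCL13 were the same. Depth limits CXCL9, and CXCL13 outside parental DAC, to a few reads.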
